A study of Arabidopsis thaliana with 12 samples.

Results

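Seedlings of *Arabidopsis* given 5-AC or TSA both had strongly lowered transcript levels for one shared group of genes, and that group is described here. The members were chosen by their values in Ws, 5-AC and TSA seedlings. A probe set of the ATH1 array is the group of probes that reads 1 transcript. It belonged to the set when its mean log2 value lay at least 2 (4-fold) below that of the Ws controls after 5-AC and again after TSA. The highest 5-AC array and the highest TSA array also both had to lie below the lowest Ws control array. Of 22746 probe sets that are not array controls, 202 met this rule. They are 14.7% of the 1377 probe sets that were lower by 2 or more after 5-AC and 70.9% of the 285 that were lower by 2 or more after TSA, and 6 more passed both limits but had arrays that overlapped. Because the rule used the 5-AC, TSA and control values, these are given below as a description with no test. In the gene lists limma's calls after 5-AC and TSA are counted only over probe sets outside the set. The *ddm1* arrays took no part in the rule, although the control arrays did. A control value that was high by chance therefore favours a negative *ddm1* difference.

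RNA was taken from whole seedlings grown in continuous light in liquid 0.5× MS medium with 1% sucrose at 21 °C, with 3 biological replicates in each of 4 groups. Ws seedlings, the wild-type ecotype, received DMSO alone and served as controls. The 5-AC group was Ws given 20 mg/L 5-aza-2′-deoxycytidine in DMSO, a cytidine analog that depletes DNA methylation in cells that replicate their DNA, and the TSA group was Ws given 2.5 mg/L trichostatin A in DMSO, an inhibitor of histone deacetylases that is known here from the labels alone. The *ddm1* group was a T-DNA mutant of the chromatin remodeler DDM1 in the Ws ecotype, which had been backcrossed and then selfed, and it also received DMSO alone. Chemicals were added after 24 h and the medium was renewed after 5 days. The labels give an age of 10 days, whereas the methods give a later harvest. One dose and 1 time were used for each chemical, so the values of the 2 chemicals are set side by side and are not a comparison of potency.

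Replicates correlated across probe sets at r = 0.961 to 0.987, the lowest value being within 5-AC. The probe set of *DDM1* read 4.64 to 5.21 in Ws, 7.04 to 7.53 after 5-AC, 5.22 to 5.51 after TSA and 7.59 to 7.91 on the arrays labelled *ddm1*. The sources used here do not place its probes relative to the insertion, so it does not check the label. Array medians lay between 4.92 and 5.03, as the authors' normalization brings the arrays to nearly one distribution.

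Several of the member genes belong to pathways of specialised metabolism and of the root. Plants make terpenes from isoprenoid precursors through terpene synthases and through cyclases of oxidosqualene, and cytochrome P450 enzymes then decorate the products. In *Arabidopsis* the genes for the root triterpene thalianol lie next to each other in the genome, which is unusual for plant genes of unlike sequence. Jasmonate is a lipid hormone whose synthesis from linolenic acid begins in the chloroplast, and its response genes include defensins. The root endodermis seals itself with the lignin of the Casparian strip and with suberin, a polyester of fatty acids, and carriers in root membranes take up potassium, phosphate, ammonium, nitrate and sulfate.

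Across the 202 members the median log2 difference from Ws was -3.35 after 5-AC (range -7.33 to -2.002) and -2.47 after TSA (range -7.50 to -2.001). Over all probe sets tested the medians were 0.05 and 0.02. In Ws the members had a median level of 6.999 and none lay under 4.47, which the rule favours, since a probe set low in Ws cannot lie 2 lower without reaching the background. Both differences reached -3, or 8-fold, in 45 members and -4, or 16-fold, in 16 members. All 5-AC arrays lay below all TSA arrays in 97 members (48.0%, against 28.2% of all probe sets tested) and all TSA arrays below all 5-AC arrays in 9 (4.46%, against 31%), and they overlapped in the other 96. The rule used these values, so nothing is read from the shares. In whole seedlings fewer cells of a type and less RNA per cell cannot be told apart. Values under the 25th percentile of an array, which was 2.62 to 2.70, are close to background. Every array of the group lay there, near the floor of the signal, for 34 members after 5-AC, for 12 after TSA and for none in Ws or *ddm1*, and for these the size of the difference depends on the background level.

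**Figure D1:**
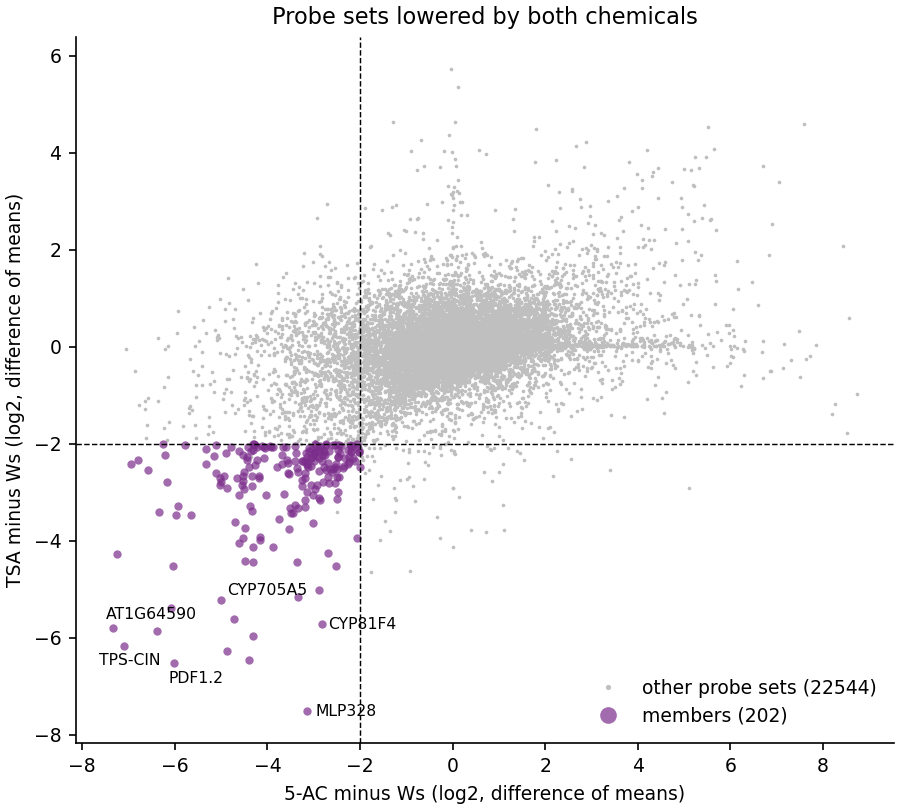
Each point is 1 of the 22746 probe sets, with the log2 difference of 5-AC from Ws on the x axis and that of TSA on the y axis, both as differences of means of 3 arrays. The 202 members (purple) fill the corner below -2 on both axes (dashed lines), and the labelled genes are examples named in the text.

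Per array, the median distance of the members from the Ws mean was -3.49, -3.47 and -3.34 in the 5-AC replicates. It was -2.54, -2.78 and -2.31 in the TSA replicates. The TSA replicates thus spread more, and TSA replicate 2 was the lowest of its group in 117 members and TSA replicate 3 the highest in 114. Among the controls Ws replicate 3 was the lowest in 119 members. Without TSA replicate 2 the rule would choose 160 probe sets, of which 155 are members, and without Ws replicate 3 it would choose 244, with 192 of the members among them.

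**Figure D2:**
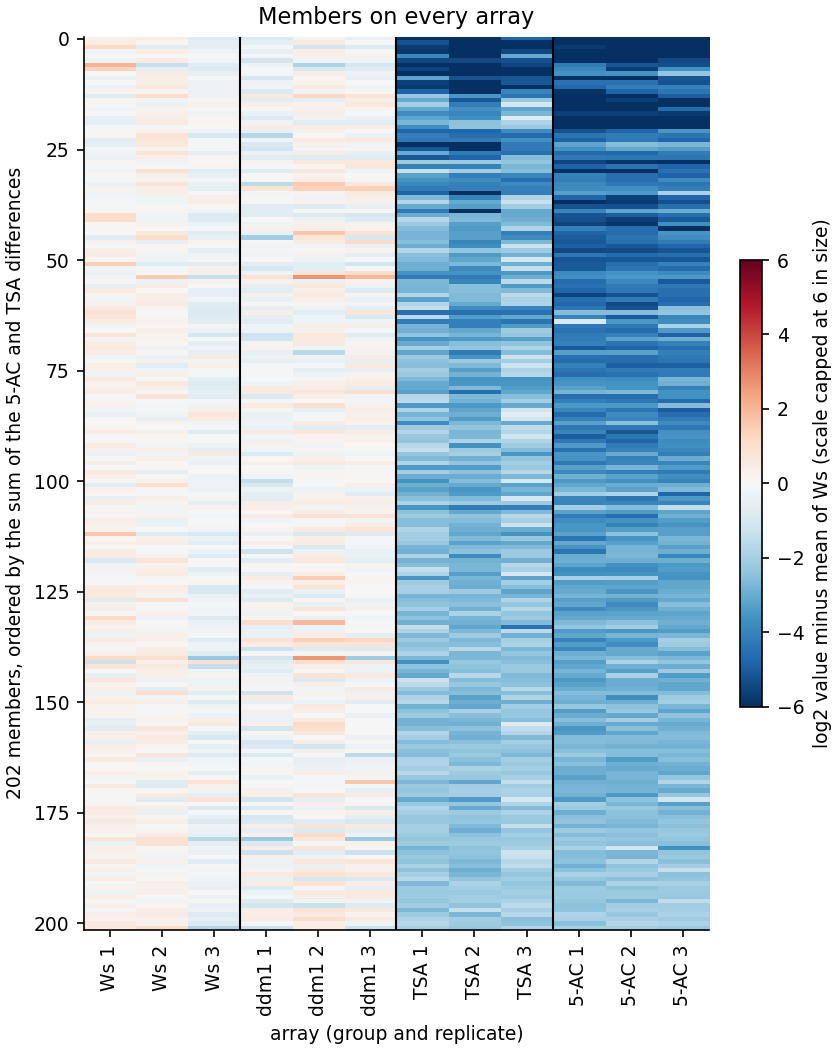
Rows are the 202 members ordered by the sum of their 5-AC and TSA differences, and columns are the 12 arrays by group and replicate. Colour is the log2 value minus the mean of Ws, capped at 6 in size, and the *ddm1* columns stay near the Ws columns while the 5-AC and TSA columns are blue.

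The 12 named members with the lowest sums of both differences were led by the gene of 1,8-cineole synthase, *TPS-CIN*, which makes a root monoterpene. Its probe set for both gene copies read 9.64, 9.87 and 8.55 in Ws, 2.32, 2.17 and 2.30 after 5-AC, 2.69, 2.34 and 4.54 after TSA and 8.50, 9.54 and 8.92 in *ddm1*. The treated arrays lay far below all others, TSA replicate 3 being the highest of them. On means this is 136-fold lower after 5-AC and 71.8-fold lower after TSA, sizes that depend on the background, since the 5-AC arrays and TSA replicate 2 lay near the floor. AT1G64590, which the study's tables describe as a short-chain dehydrogenase, read 11.42, 11.16 and 10.41 in Ws, 3.33, 4.18 and 3.47 after 5-AC, 5.77, 4.80 and 5.05 after TSA and 10.47, 11.55 and 10.98 in *ddm1*. It had the lowest 5-AC difference of all members, -7.33, beside -5.79 after TSA and 0.00 in *ddm1*. The putative cysteine proteinases AT4G11320/AT4G11310 share a probe set that averaged 9.69 ± 0.39 (SD, n = 3) in Ws, 3.31 ± 0.01 after 5-AC, 3.84 ± 0.42 after TSA and 9.62 ± 0.41 in *ddm1*. AT5G37990, described as a methyltransferase, differed from Ws by -6.08 after 5-AC, by -5.38 after TSA and by -0.51 in *ddm1*. For AT4G01390, whose function the tables leave unknown, the differences were -6.05, -4.51 and -0.43 in the same order. The other genes of these 12 belong to the groups below, namely 2 defensins, 3 major latex proteins, 1 lipid transfer protein pair and 1 cytochrome P450.

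The thalianol genes that lie in a row, 4 in all, were members. *THAS1* encodes thalianol synthase, *CYP708A2* the thalianol hydroxylase, *CYP705A5* the thalian-diol desaturase, and AT5G47980 is described as a transferase. *THAS1* read 8.55, 8.87 and 8.55 in Ws, 5.04, 5.60 and 5.34 after 5-AC, 3.57, 2.49 and 4.40 after TSA and 7.48, 8.51 and 8.82 in *ddm1*. Every TSA array lay below every 5-AC array, and the *ddm1* arrays overlapped Ws. *CYP708A2* read 9.38, 9.49 and 9.05 in Ws, 5.39, 6.13 and 6.33 after 5-AC, 5.08, 3.32 and 6.23 after TSA and 8.66, 9.39 and 9.42 in *ddm1*. *CYP705A5* read 10.09, 10.04 and 9.55 in Ws, 4.001, 5.08 and 5.56 after 5-AC, 5.10, 2.98 and 5.92 after TSA and 9.05, 9.71 and 9.94 in *ddm1*. For these P450 genes the arrays of the 2 chemicals overlapped, and TSA replicate 2 was the lowest of its group. AT5G47980 read 5.80, 5.08 and 4.87 in Ws, 2.46, 2.43 and 2.45 after 5-AC, 2.45, 2.48 and 2.47 after TSA and 4.78, 4.42 and 5.11 in *ddm1*, and was near the floor after both chemicals. The differences in *ddm1* ran from -0.48 to -0.15, and none passed the test of limma described below (lowest adjusted p = 0.785, for AT5G47980).

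These 4 genes follow one another in the RefSeq gene order of TAIR10.1 on chromosome 5, from AT5G47980 to *THAS1* (AT5G48010). Next to AT5G47980 lies AT5G47970, whose differences were 0.35 after 5-AC and -0.09 after TSA (adjusted p = 0.0977 and 0.788 from limma). On the other side AT5G48020 rose by 2.29 after 5-AC (adjusted p = 7.7e-07 from limma) and differed by 0.18 after TSA (adjusted p = 0.522). The lowered stretch therefore ended at AT5G47980 and at *THAS1* among the neighbours with a named probe set. Beyond these, AT5G47950 fell by 1.31 after TSA (adjusted p = 0.00375) and differed by 0.21 after 5-AC (adjusted p = 0.472). *XTH20*, a xyloglucan hydrolase gene 6 genes from *THAS1*, fell by 2.95 after 5-AC and by 1.19 after TSA (adjusted p = 1.8e-06 and 0.00665). The terpene synthase AT5G48110, 9 genes away, was again a member, with -2.80 and -2.23. Its 5-AC mean of 2.46 was close to background, so the size of the 5-AC difference depends on the background level. In *ddm1* AT5G48110 had -0.78 (adjusted p = 0.308 from limma), and -1.05 without Ws replicate 3 (adjusted p = 0.0354). AT5G48060, 5 genes from *THAS1* and not a member, was higher in *ddm1* by 0.97 (adjusted p = 0.00869 from limma). Its Ws mean of 2.51 was close to background. Gene names in this region were taken from the platform and from the study's tables, and genes with no named probe set are left out.

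**Figure D3:**
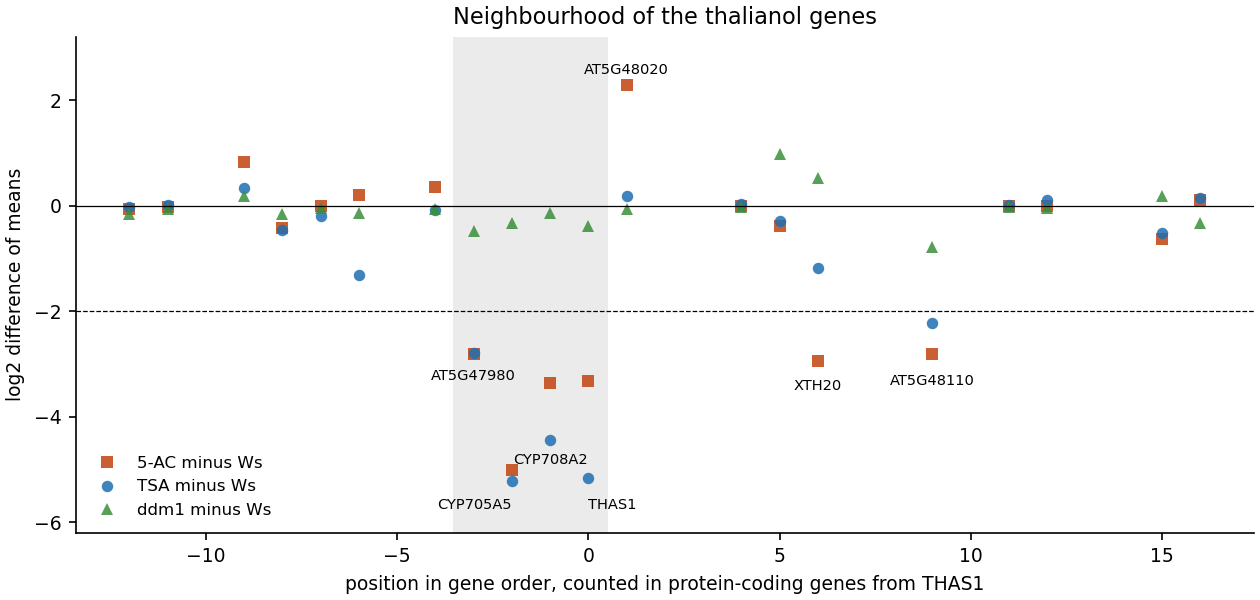
The x axis is the position in gene order, counted in protein-coding genes from *THAS1*, and the y axis is the log2 difference from Ws after 5-AC (squares), after TSA (circles) and in *ddm1* (triangles). The 4 thalianol genes (grey band) lie below -2 for both chemicals, while AT5G48020 beside them lies at 2.29 after 5-AC and at 0.18 after TSA.

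Some other members also lay near each other. Of 194 member genes placed on the 5 chromosomes, 25 (12.9%) had another member probe set within 5 genes, the 4 thalianol genes included. Of 11328 other genes tested, 733 (6.47%) had a member within 5 genes. The probe sets near each other formed 12 runs, of which the thalianol run held 4 probe sets and the other 11 held 2 each, some of them reading more than 1 gene. Several pairs were copies of like sequence, such as the *TPS-CIN* copies and AT4G24340/AT4G24350, whose probe sets can read both copies.

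Terpene synthases and cyclases as a list, read from the words of their descriptions, held 11 tested probe sets, of which 9 were members. These include 2 probe sets for *TPS-CIN* and, by its description, *CYP708A2*. AT1G31950, AT1G33750, AT1G48800, AT5G48110 and the pair AT3G32030/AT3G31415 are described as terpene synthases. AT1G31950 differed from Ws by -4.27 after 5-AC and -2.43 after TSA, and was near the floor after 5-AC. Outside the set, both of the 2 other probe sets were lower after 5-AC by limma and 1 after TSA. Of all probe sets tested 26.2% and 7.28% were called lower and 30.8% and 7.11% higher, and the counts outside the set in the lists below stand beside these shares. Descriptions were available mostly for genes that the study called changed after 5-AC, so this count and those of the other families are not independent evidence of a direction. The gene lists below, such as those on jasmonate, sulfur and suberin, also hold probe sets named only by the study's tables of changed genes. The same limit applies to their 5-AC counts. AT3G29410, a terpene synthase outside the set, stood at -6.61 after 5-AC and at -1.62 after TSA.

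The P450 list held 9 members among 50 tested probe sets, and of the other 41 by limma 18 were lower and 15 higher after 5-AC, with 9 lower and 2 higher after TSA. Besides *CYP705A5* and *CYP708A2* the members named by rule were *CYP81F4*, *CYP82F1* and *CYP716A2*. *CYP81F4*, an enzyme that modifies indole glucosinolates, read 10.63, 11.79 and 11.13 in Ws, 8.03, 8.60 and 8.44 after 5-AC, 4.95, 4.55 and 6.92 after TSA and 10.25, 11.43 and 10.97 in *ddm1*. All its TSA arrays lay below all its 5-AC arrays, 52.3-fold against 7.11-fold lower than Ws on means. The opposite order held for *MYB34*, a transcription factor of the same pathway, with -3.59 after 5-AC and -2.07 after TSA. The other genes of the indole glucosinolate list, 3 of 5, were lower after 5-AC by limma and were not called after TSA, with 0.55 for *SUR1*, 0.26 for *UGT74B1* and -0.21 for *CYP79B3* (adjusted p = 0.0634, 0.537 and 0.691 from limma). *CYP82F1* stood at -4.70 and -3.62, and *CYP716A2* at -4.17 and -3.92 and near the floor after both chemicals.

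Jasmonate genes had high Ws levels, with a median of 11.67 over 5 members. *PDF1.2*, a defensin used as a marker of jasmonate and ethylene responses, read 13.18, 11.37 and 11.39 in Ws, 6.24, 5.68 and 5.94 after 5-AC, 6.29, 5.47 and 4.60 after TSA and 11.85, 10.83 and 11.16 in *ddm1*. Ws replicate 1 was higher than the other controls, and the treated arrays stayed far below all controls. *PDF1.2b*, a near copy, read 13.08, 11.08 and 10.85 in Ws, 7.81, 6.003 and 8.02 after 5-AC, 6.10, 5.54 and 4.02 after TSA and 11.62, 10.79 and 10.93 in *ddm1*. Its probe set can also read related sequences, so both defensin values may share signal. *AOS*, the allene oxide synthase of jasmonate synthesis, read 10.16, 9.64 and 9.16 in Ws, 4.91, 5.39 and 5.11 after 5-AC, 6.85, 7.10 and 7.001 after TSA and 8.96, 10.07 and 8.90 in *ddm1*. It was 22.9-fold lower after 5-AC and 6.37-fold lower after TSA, with no overlap between the chemicals. The next step is catalysed by allene oxide cyclase, and the probe set shared by *AOC1/AOC2* differed by -4.50 and -2.92. *TIFY7*, also known as *JAZ9* and a repressor of jasmonate signalling, differed by -4.39 and -2.48.

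The jasmonate list was written after the members were known and held 7 tested probe sets, 5 of them members. Of the 2 outside the set both were lower after 5-AC by limma and 1 after TSA, where *MYC2*, the main transcription factor of the pathway, fell by 1.51 (adjusted p = 0.00885). *CLH1*, a jasmonate-induced chlorophyllase gene, had a difference of -1.92 after TSA that missed the threshold (adjusted p = 0.0614 from limma). In *ddm1* the 5 members differed from Ws by -0.70 to -0.17, and none was called.

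Of the sulfur-deficiency genes 4 were members. *ATSDI1* (*SDI1*), which represses aliphatic glucosinolate synthesis when sulfur is short, read 11.22, 12.08 and 11.84 in Ws, 5.19, 4.44 and 5.75 after 5-AC, 8.54, 8.03 and 10.94 after TSA and 10.88, 11.50 and 11.31 in *ddm1*. TSA replicate 3 lay close under the controls and above the lowest *ddm1* array. *LSU1*, a small protein induced by low sulfur, read 10.89, 11.14 and 10.98 in Ws, 6.12, 5.87 and 6.25 after 5-AC, 8.03, 7.28 and 9.71 after TSA and 10.79, 10.86 and 10.59 in *ddm1*. Again the 5-AC arrays lay below all TSA arrays and TSA replicate 3 was the highest. *BGLU28*, a beta-glucosidase gene of the same response, read 8.79, 9.44 and 9.23 in Ws, 4.88, 4.82 and 4.81 after 5-AC, 4.09, 4.41 and 6.56 after TSA and 8.41, 8.36 and 8.51 in *ddm1*. Here the means of the chemicals were close, -4.32 and -4.13. *SULTR1;3*, a phloem sulfate carrier, differed by -4.33 after 5-AC, by -2.88 after TSA and by -0.08 in *ddm1*.

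Of the 9 sulfur probe sets tested 5 were outside the set, and by limma all 5 were lower after 5-AC and 1 after TSA. That 1, *SHM7*, fell by 1.39 after TSA (adjusted p = 0.0186). *GGCT2;1*, a glutathione-degrading enzyme gene, had -2.27 after TSA (adjusted p = 0.0536), *APR1* had -0.74 (adjusted p = 0.262) and *SDI2* had -0.06 (adjusted p = 0.974), each by limma. This list too was written with the members known.

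**Figure D4:**
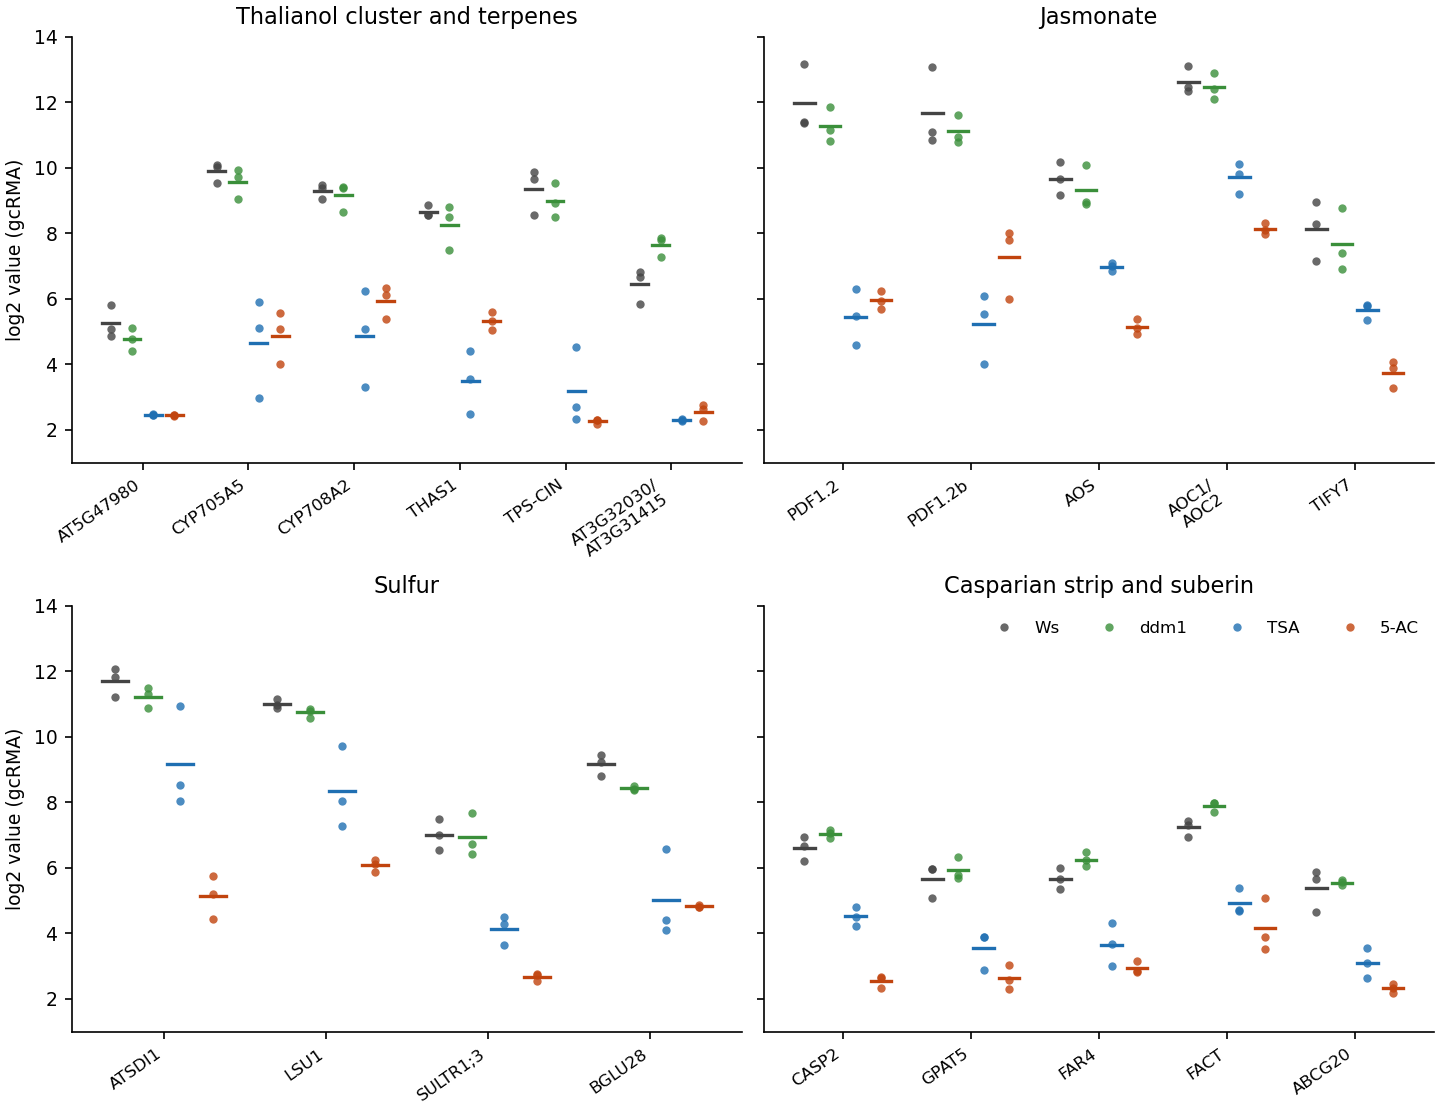
Points are single arrays and bars are means of 3 arrays, on the log2 scale of the deposited values, for members of 4 groups of genes. Within each gene the groups run from left to right as Ws, *ddm1*, TSA and 5-AC, and in every gene shown the TSA and 5-AC arrays lie below all Ws arrays, with *ATSDI1* in TSA reaching up to 10.94.

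Genes of the endodermal barrier gave 5 members, with Ws levels of 5.39 to 7.23. *CASP2*, a scaffold protein of the Casparian strip, read 6.95, 6.66 and 6.20 in Ws, 2.33, 2.63 and 2.67 after 5-AC, 4.81, 4.23 and 4.51 after TSA and 6.93, 7.15 and 7.06 in *ddm1*. Its 5-AC arrays lay below its TSA arrays, 16.7-fold and 4.25-fold lower than Ws on means, and the first of these depends on the background, since the 5-AC arrays were at or close to it. *FACT*, which joins caffeic acid to fatty alcohols of suberin waxes, read 7.44, 7.32 and 6.95 in Ws, 3.88, 3.52 and 5.10 after 5-AC, 4.71, 4.68 and 5.40 after TSA and 7.69, 7.97 and 7.99 in *ddm1*. Each *ddm1* array was higher than each Ws array, yet the difference of 0.65 did not pass limma's test (standard error 0.35, adjusted p = 0.868). *GPAT5*, the suberin acyltransferase, *FAR4*, a fatty acyl reductase, and *ABCG20*, a suberin transporter, lay between -3.07 and -2.73 after 5-AC and between -2.30 and -2.01 after TSA. All 5 members had *ddm1* means above Ws, by 0.16 to 0.65, with none called.

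The suberin and Casparian list, written with the members known, held 10 tested probe sets. By limma the 5 outside the set were all lower after 5-AC and after TSA. The platform named only 1 of the 10, a member. The 5 outside the set were named only by the study's tables of changed genes, so their 5-AC calls are not independent evidence. Among these 5, *CASP1* and *ABCG6* fell by 1.63 and 1.71 after TSA (adjusted p = 0.0126 and 0.00316 from limma). Of 7 endodermis and stele markers 4 had a named probe set, and 1 of these, *GPAT5*, is itself a member. Of the 3 outside the set, by limma all 3 were lower after 5-AC and 2 after TSA. The summed level of the 4, *GPAT5* included, was 9.78 to 10.24 on the log2 scale in Ws and 6.09 to 6.58 after 5-AC. It was 8.69 to 8.86 after TSA and 10.22 to 10.54 in *ddm1*. Of 14 root hair markers 7 had a named probe set, 2 of them named by the platform. These 7 summed to 10.43 to 12.14 in Ws, 5.31 to 6.49 after 5-AC, 9.54 to 10.30 after TSA and 10.38 to 11.19 in *ddm1*. None of the root hair markers was a member, and 7 were lower after 5-AC while 1, *AGP3*, was lower after TSA. Of 6 leaf mesophyll markers 2 had a named probe set. These 2 summed to 13.62 to 14.07 in Ws, 10.83 to 12.79 after 5-AC, 13.82 to 13.98 after TSA and 13.64 to 13.92 in *ddm1*. Of 2 genes of the root in general, *PYK10*, a root glucosidase gene, had -0.52 after 5-AC and -0.25 after TSA (adjusted p = 0.0391 and 0.453 from limma), while *NRT2.1*, a nitrate carrier gene, rose by 4.16 after 5-AC (adjusted p = 2.97e-06). The xylem marker *IRX3*, a cellulose synthase gene, fell by 0.80 and 0.65 after 5-AC and TSA and rose by 0.79 in *ddm1* (adjusted p = 4.29e-04, 0.00930 and 0.00964 from limma). The phloem marker *SUC2*, a sucrose carrier gene, fell by 3.34 after 5-AC (adjusted p = 6.38e-07 from limma) and had -0.27 after TSA (adjusted p = 0.492). Both guard cell markers, *FAMA* and *MYB60*, fell after 5-AC, with differences of -1.89 and -1.697, and had -0.39 and -0.08 after TSA (adjusted p = 2.08e-05 and 2.35e-05, then 0.251 and 0.840, from limma). A marker could enter only with a name from the platform or from the study's tables of changed genes. *SUC2*, *IRX3* and the endodermis and stele markers had names from those tables alone. The 5-AC directions of the markers are therefore not independent evidence. The part of these cell types in the levels of the members was not tested.

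Carriers for mineral nutrients included *HAK5*, the high-affinity potassium carrier, which read 7.41, 7.94 and 6.74 in Ws, 2.58, 2.69 and 3.85 after 5-AC, 4.60, 4.11 and 3.24 after TSA and 6.95, 8.99 and 8.22 in *ddm1*. The *ddm1* arrays spread from below to above the controls, and the *ddm1* difference of 0.69 had a standard error of 0.55. *PHO1;H1*, which loads phosphate into the xylem, differed by -4.50 and -2.59, and *PHT1;8*, a phosphate carrier, by -2.54 and -2.48 with values near the floor after both chemicals. The ammonium carriers *AMT1;3/AMT1;5* share a probe set that differed by -2.42 and -2.20. *NRT1.9*, a nitrate transporter, differed by -4.28 after 5-AC and by -2.01 after TSA, close to the limit of the rule. The carriers outside the set were 2, of which by limma 1 was lower and 1 higher after 5-AC and none was called after TSA, the higher one being *NRT2.1* with 0.59 after TSA (adjusted p = 0.309).

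Lipid transfer proteins are small secreted proteins that bind lipids. Their list, read from the words of descriptions, held 4 members among 18 tested probe sets and can miss genes of the family. Each of these 4 was lower on all 5-AC arrays than on any TSA array, an order that covers the listed members only. The pair AT5G46900/AT5G46890 read 10.02, 10.04 and 10.06 in Ws, 3.07, 2.67 and 2.68 after 5-AC, 6.20, 4.07 and 7.04 after TSA and 9.90, 10.33 and 10.34 in *ddm1*. The pair AT4G12520/AT4G12510 read 10.18, 9.76 and 10.38 in Ws, 3.02, 3.24 and 3.19 after 5-AC, 8.06, 5.95 and 9.07 after TSA and 10.42, 10.31 and 10.75 in *ddm1*. Their TSA arrays spread over more than 2 on the log2 scale, with replicate 2 the lowest in both. AT4G22490 and AT3G53980 stood at -6.17 and -6.20 after 5-AC and at -2.78 and -2.23 after TSA. Of the 14 outside the set by limma 8 were lower and 6 higher after 5-AC, and 2 were lower and 5 higher after TSA.

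Major latex proteins, a family of small ligand-binding proteins, had 6 members of 9 tested probe sets. *MLP328* read 12.02, 12.50 and 11.56 in Ws, 8.41, 8.51 and 9.71 after 5-AC, 4.38, 3.22 and 5.99 after TSA and 11.95, 12.43 and 11.74 in *ddm1*. This was the lowest TSA difference of all members, -7.50 or 181-fold, against 8.90-fold after 5-AC, and the arrays of the chemicals did not overlap. AT4G14060 showed the same order with -4.31 and -5.96, also without overlap, whereas for *MLP34* (-4.18 and -2.70) and AT1G14960 (-5.03 and -2.85) the 5-AC arrays were the lower ones. For AT3G26460 and *MLP165* they overlapped. The *ddm1* differences of the 6 members ran from -0.39 to 0.07.

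Dirigent proteins guide the coupling of lignin-like phenols. Their list held 4 members, AT4G11190, AT4G13580, AT2G39430 and the pair AT5G42510/AT5G42500. The differences of these 4 were -5.97 to -3.55 after 5-AC and -3.47 to -2.05 after TSA, with the 5-AC arrays lowest in each. AT4G11210, a member near AT4G11190 in the genome, was not on the list, and its 5-AC and TSA arrays overlapped. *ESB1*, the dirigent protein that organises the Casparian strip, was outside the set and fell by 1.76 after TSA (adjusted p = 0.0191 from limma). Of 7 tested probe sets the 3 outside the set were all lower after either chemical by limma, as were the 3 outside the set among the major latex proteins. Both of these family lists were written after the members were known.

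Cell wall and surface proteins were represented by *AGP13* and *AGP22*, arabinogalactan proteins, *PELPK2*, a proline-rich protein, and AT4G38080, a hydroxyproline-rich glycoprotein. They differed by -4.52 to -3.78 after 5-AC and by -2.76 to -2.07 after TSA, and were 4 of 44 tested probe sets of their list. Pectin enzymes added the pectinesterase AT5G04960 and *ATPMEPCRD* and the inhibitor-like protein AT5G62340. Receptor-like kinases gave 4 members among 54 tested probe sets, namely AT1G07560, AT3G24240, AT5G48940 and *CRK25*, with -4.27 to -3.05 after 5-AC and -3.03 to -2.03 after TSA. Outside the set 28 wall protein probe sets were lower and 11 higher after 5-AC by limma, and 7 were lower and 6 higher after TSA. Among the kinases these counts were 31 and 19 after 5-AC and 14 and 2 after TSA, and among the pectin and xylan enzymes 14 and 10, then 4 and 3.

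Further members were enzymes, such as those of phosphate release and detoxification, and sugar transporters, and were named after their values had been seen. Acid phosphatases, which free phosphate from organic compounds, included AT4G29270 (-5.66 and -3.47), *PAP24* (-2.98 and -2.17) and *PAP25* (-2.68 and -2.81). *GSTU14* and *GSTU28*, glutathione transferases, stood at -4.08 and -2.99 after 5-AC and at -2.30 and -2.20 after TSA. *SWEET13* and *SWEET16*, sugar transporters, stood at -2.54 and -3.26 after 5-AC and at -2.81 and -2.87 after TSA. *ST4B* and the pair AT3G45080/AT3G45070, sulfotransferases, stood at -4.31 and -5.01 after 5-AC and at -2.12 and -2.79 after TSA. Outside the set, of 10 acid phosphatases 9 were lower and 1 higher after 5-AC by limma and 1 was lower after TSA. Of 15 glutathione transferases 7 were lower and 5 higher after 5-AC, and 5 lower and 1 higher after TSA. Of 9 *SWEET* probe sets 2 were lower and 3 higher after 5-AC, and 1 was higher after TSA. The 1 other sulfotransferase was lower after 5-AC.

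At the edge of the rule the differences met the limit with little to spare. Just inside lay *UGT71C1*, a glycosyltransferase gene, with -2.002 after 5-AC and -2.47 after TSA. *THI2.2*, a thionin gene, had -2.06 and -2.001, and *FBA5*, an aldolase gene, had -6.25 and -2.001. Ws replicate 3 of *THI2.2* read 2.82 against 5.19 and 5.67 in the other controls. Just outside lay AT1G56320 (-3.27 and -1.9996), AT2G20515 (-2.48 and -1.96) and AT4G28085 (-1.95 and -2.14).

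In the *ddm1* mutant the members stayed close to the control level. The median difference from Ws over the 202 members was -0.03 (range -1.27 to 1.85), the same as the median of -0.03 over all probe sets tested, and 109 members were below Ws and 93 above. In 198 members (98.0%, against 10.7% of all probe sets tested) the lowest *ddm1* array lay above every 5-AC and every TSA array, a count that the rule largely sets where *ddm1* is near Ws. The other 4 were *ATSDI1*, *CT-BMY*, AT4G29690 and AT1G12030, in each of which TSA replicate 3 reached the lowest *ddm1* array. With limma fitted to all probe sets and all arrays, and Benjamini-Hochberg adjustment over all probe sets tested, 0 members were lower in *ddm1* and 1 was higher at an adjusted p under 0.05. Over all probe sets 0.215% were called lower and 1.35% higher. Beside these shares, counts of 0 and 1 of 202 (0.495%) are too small to tell whether the members differ from other probe sets. At an unadjusted p under 0.05, 9 members were lower (4.46%, against 3.21% of all) and 7 higher (3.47%, against 3.52%). The methods' t-test called 0 members in either direction after adjustment and 7 in each direction before it. All *ddm1* arrays lay below all Ws arrays in 13 members (6.44%, against 10.8% of all probe sets) and above them in 14 (6.93%, against 6.49%).

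**Figure D5:**
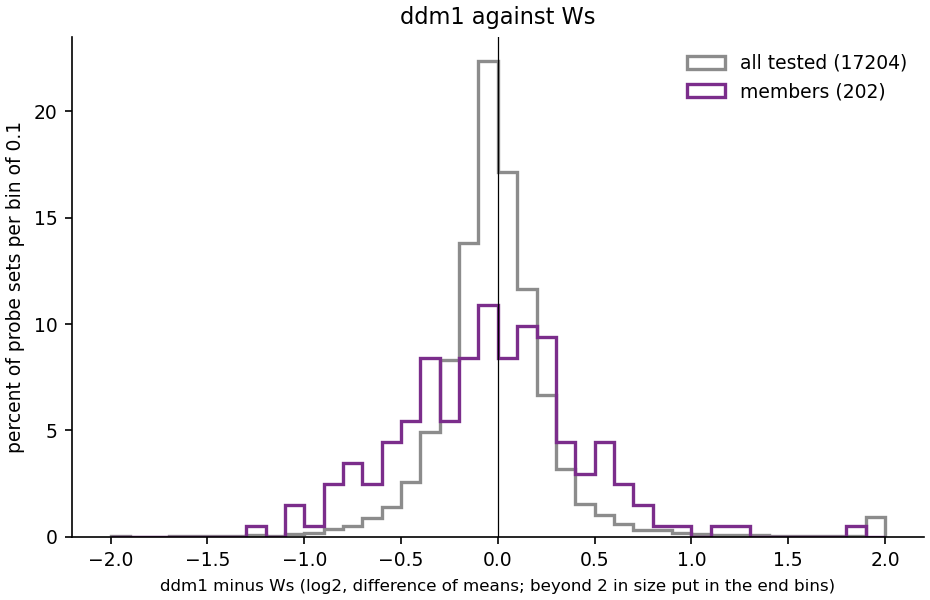
The x axis is the log2 difference of *ddm1* from Ws in bins of 0.1 and the y axis the percent of probe sets in each bin, for the 202 members (purple) and all probe sets tested (grey). Both distributions centre near 0, and that of the members is the wider one.

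The members were more spread around 0 than other genes. In *ddm1* 73.8% of them differed from Ws by less than 0.5 in size, against 92.2% of all probe sets tested, and 96.5% differed by less than 1, against 98.0%. Their replicates were also more spread, with a median SD of 0.41 in Ws and 0.33 in *ddm1*, against 0.20 and 0.16 over all probe sets tested. The part of the replicate spread in the wider *ddm1* differences was not tested.

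The 1 member called was the terpene synthase pair AT3G32030/AT3G31415, whose probe set reads more than 1 gene. It read 6.67, 6.81 and 5.84 in Ws, 2.64, 2.76 and 2.27 after 5-AC, 2.27, 2.34 and 2.32 after TSA and 7.28, 7.80 and 7.87 in *ddm1*. All *ddm1* arrays were above all controls, by 1.21 on means (standard error 0.25, adjusted p = 0.0402 from limma). The call was lost when Ws replicate 1 or 3, 5-AC replicate 1 or 2, *ddm1* replicate 2 or 3 or any TSA replicate was left out, with adjusted p of 0.0605 to 0.201 and a difference of 0.91 without Ws replicate 3. With the replicate number as a block in limma, it stayed higher (adjusted p = 0.0475), and AT3G23480/AT3G23470, described as related to cyclopropane fatty acid synthase, was called lower. That pair read 5.56, 5.17 and 4.95 in Ws and 4.82, 4.16 and 4.29 in *ddm1*, a difference of -0.80 (adjusted p = 0.0379 with the block and 0.210 without). Neither pair was called with the block on the Ws and *ddm1* arrays alone, a fit chosen after the data were seen.

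The named members lowest in *ddm1* were AT1G12030, *WNK9*, AT5G37980 and the pair AT4G24350/AT4G24340. *WNK9*, a protein kinase gene, read 5.09, 4.89 and 4.35 in Ws, 2.33, 2.69 and 2.68 after 5-AC, 2.68, 2.37 and 3.19 after TSA and 3.69, 3.44 and 4.02 in *ddm1*. Its *ddm1* arrays lay between the controls and the treated arrays, with a difference of -1.06 that missed the threshold (standard error 0.25, adjusted p = 0.0890 from limma). Without Ws replicate 3 the difference was -1.27 and passed (adjusted p = 0.0390). AT1G12030, of unknown function in the tables, also differed by -1.06 (adjusted p = 0.282). AT5G37980, described as an oxidoreductase, read 8.55, 8.98 and 8.40 in Ws and 7.33, 7.83 and 7.80 in *ddm1*, a difference of -0.99 (adjusted p = 0.415). Its neighbour in the genome, the methyltransferase AT5G37990, differed by -0.51. AT4G24350/AT4G24340, described as phosphorylases, differed by -0.83 (adjusted p = 0.752).

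Highest in *ddm1* was AT2G16005, which read 5.98, 7.74 and 4.82 in Ws and 7.06, 8.84 and 8.19 in *ddm1*. The controls spread over nearly 3 on the log2 scale and overlapped the mutant, and the difference of 1.85 missed the threshold (standard error 0.66, adjusted p = 0.487 from limma). *PAP25*, a purple acid phosphatase, read 5.65, 5.17 and 4.84 in Ws and 6.27, 7.16 and 5.08 in *ddm1*, a difference of 0.95 (adjusted p = 0.704). Without *ddm1* replicate 3 it was 1.49 and passed the threshold (adjusted p = 0.0386). *NCED4*, a dioxygenase that cleaves carotenoids, read 8.57, 10.36 and 9.01 in Ws, 2.27, 2.26 and 4.39 after 5-AC, 7.03, 5.82 and 4.90 after TSA and 9.89, 10.56 and 10.09 in *ddm1*. Its *ddm1* difference of 0.87 was as small as the spread of the controls, whose arrays it overlapped (adjusted p = 1.00 from limma).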

How the data were processed

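RNA of 12 samples was measured on Affymetrix ATH1 arrays. The deposited values are log2 expression values that the authors computed with gcRMA, which corrects background by probe sequence, normalizes the arrays by quantiles and gives 1 value per probe set. Quantile normalization removes a shift common to most transcripts. All columns were used. Groups follow the sample labels, and the members follow the rule given with the results. Both the members and the gene lists were chosen with earlier results of these data known.

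Of 22810 probe sets 64 controls were left out. Tests covered the probe sets whose second-highest value over the arrays was 2.98 or more, which keeps as many as the methods, whose own filter on present calls was not used here. All 202 members passed, although a member passes through its Ws and *ddm1* values alone. Tests used limma 3.58.1 in R 4.3.3, with lmFit and eBayes on all arrays, two-sided, and Benjamini-Hochberg adjustment. Tables were joined with pandas 2.3.3 in Python 3.11.15. The number of arrays limits the precision.

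The replicate numbers pair *ddm1* with Ws: deviations of same-numbered arrays from their group means correlated at 0.41, 0.52 and 0.23. They do not pair either chemical with Ws in all replicates, where the correlations ran from -0.08 to 0.24. The correlations of 5-AC with TSA (0.13 to 0.18) and with *ddm1* (0.11 to 0.26) were over 0.1 in every replicate, and no test compared those groups. Hence values with the number as a block are given where they change a *ddm1* call of a member. Calls of single genes after 5-AC and TSA were not compared with and without the block. Over all probe sets the block gave 1469 lower after TSA in place of 1253.

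The platform's table named 116 members, the study's tables of genes changed after 5-AC named another 65, and 21 are unnamed. Those tables list genes for their change on these arrays, so a name from them is not independent of it. Families were read from the descriptions in those tables and from RefSeq names, since the RefSeq table used here holds no descriptions. Named genes are the 12 members with the lowest sum of the 5-AC and TSA differences, members called in *ddm1*, the 4 lowest and 4 highest in *ddm1*, up to 5 per list with 3 or more members, and the 3 nearest the limit on each side. Those of the lists on jasmonate, sulfur, suberin, indole glucosinolates, mineral carriers, major latex, dirigent and further families were added after the values were seen. Alternatives were other filters, scalings and tests, other limits of the rule and each array left out. Promoter motifs were planned and not analysed here, since no sequence was at hand.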

Additional observations from a re-analysis of the deposited data

How the results depend on the processing

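Over the 202 members the median *ddm1* difference stayed between -0.17 and 0.09 when single arrays were left out and was -0.12 after centring on housekeeping genes, which shifted the 5-AC median of all probe sets from 0.05 to -0.21 and that of the members to -3.61. The count of members higher in *ddm1* was 0 rather than 1 with no filter on low values, a stricter filter, the methods' t-test, housekeeping centring, only the Ws and *ddm1* arrays (with or without the replicate block) and probe sets for a single sequence, and 0 to 1 with single arrays left out. The count lower was 1 with the replicate block, 1 with housekeeping centring (*WNK9*, adjusted p = 0.0305 from limma), and 0 to 3 with single arrays left out, 3 being without Ws replicate 3. With the block on only the Ws and *ddm1* arrays it was 0. The block changed no other *ddm1* call of a named member. Over all probe sets 37 were lower in *ddm1*, against 13 with the stricter filter, 0 by the t-test, 21 with the block on only the Ws and *ddm1* arrays and 20 to 49 with single arrays left out, the lowest without *ddm1* replicate 3. The t-test called 2026 lower after 5-AC in place of 4508 and 4 after TSA in place of 1253, and with single arrays left out the TSA count ran from 828 (without TSA replicate 2) to 1420. A limit of -3 would choose 45 probe sets and one of -1 would choose 667. The cause of these differences was not tested. Near the floor, signal over background limits the size of the 5-AC and TSA differences, and the planned search for promoter motifs was not run.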
